A study of Mus musculus with 21 samples.

Results

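The genes of the late epidermal barrier enzymes were followed through newborn Jak1 KI and WT mice. The group holds 9 genes of the 24391 listed in the count tables, taken by symbol and found in all 21 libraries: Alox12b, Aloxe3, Abca12, Elovl4, Cers3, Tgm1, Tgm3, Tgm5 and Asprv1. The first 5 make, move or oxidise the lipids of the barrier and the 3 Tgm genes encode crosslinking enzymes. Asprv1 encodes a protease, so the name barrier lipid and crosslinking enzymes covers 8 of the 9 genes by function.

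The cornified layer is built when keratinocytes leave the basal layer, move up through the suprabasal layers and die in place. In the upper layers, lamellar granules release ceramides with ultra-long acyl chains, and transglutaminases link envelope proteins and some of these lipids into an insoluble shell. Inherited loss of several of these genes causes congenital ichthyosis in humans, and newborn mice lacking some of them lose water through the skin.

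RNA was sequenced from brain, liver and skin of C57BL/6 newborns (C57BL/6J in the study's methods) at P0, the day of birth, with 2 Jak1 KI and 5 WT samples per tissue. Jak1 KI mice were heterozygous for a knocked-in amino acid substitution of the kinase Jak1, which came with 2 silent changes in the neighbouring codons, while WT mice carried neither. According to the study's methods, the line was made with CRISPR-Cas9 and KI pups were bred from a mosaic male. The Jak1 allele was not limited to keratinocytes, and skin was taken as whole tissue. The body site of the skin and the sex and litter of the pups are not given in the sources used here, so p-values measure the spread between these samples.

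The libraries held between 26549326 and 38388133 counts on genes. Levels are given as CPM, the counts of a gene relative to the size of its library after TMM scaling over all 21 libraries. Before any comparison, the skins themselves differed. The skins of KI 2 and WT 5, a mouse of each genotype, held little RNA of suprabasal keratinocytes: the 7 suprabasal markers summed to 211 CPM in KI 2 and 387 CPM in WT 5, against 1631 to 9514 CPM in the other 5 skins. Krt1 and Krt10, the keratins of the suprabasal layers, were at 90.8 and 45.2 CPM in KI 2 and at 161 and 70.3 CPM in WT 5, while the other 5 skins reached at least 772 and 446 CPM. The basal markers, led by Krt5 and Krt14, summed to 929 and 1512 CPM in these 2 skins and to between 2096 and 4471 CPM in the rest. KI 2 and WT 5 were the 2 lowest skins for 4 of the 6 basal markers. The integrin genes Itga6 and Itgb4 were not among those: Itga6 was at 182 and 187 CPM, against 167 to 218 CPM in the rest. Itgb4 was lowest in KI 2, at 49.5 CPM, but at 63.9 CPM in WT 5, against 51.9 to 88.2 CPM in the rest. Fibroblast markers, led by Col3a1 and Col1a1, were not reduced in sum: 75660 and 81237 CPM against 49986 to 66299 CPM. Lum and Pdgfra were lowest in KI 2, at 721 and 272 CPM, but not in WT 5, at 989 and 311 CPM. Melanocyte markers were also low in KI 2 and WT 5, with 32.5 and 40.8 CPM against 49.0 to 356 CPM. Hair follicle and sebaceous gland markers summed to 110 and 97.6 CPM there, against 88.9 to 536 CPM. Results that rest on skin are therefore also given without KI 2 and WT 5 where that changes the picture, and log2 fold changes between KI and WT skin are given both ways. No body site or RNA integrity of single skins is given in the sources used here. In bulk tissue, fewer keratinocytes and less RNA per keratinocyte cannot be told apart.

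Positions were read from the annotation of NCBIM37, the build named mm9 in the study's methods. The lipoxygenases lie next to each other on chromosome 11, Aloxe3 at 68939398 to 68962617 and Alox12b at 68970491 to 68983294, with 7873 bases between them. Tgm3 and Tgm5 share chromosome 2, at 129838085 to 129876135 and 120871847 to 120911577. Tgm1 lies on chromosome 14 at 56318846 to 56332329, Abca12 on chromosome 1 at 71289664 to 71461484 and Elovl4 on chromosome 9 at 83672300 to 83699912. Cers3 lies on chromosome 7 at 73888390 to 73968578, and Asprv1, a single-exon gene, on chromosome 6 at 86578168 to 86579696. None of the 9 shared exon bases with another annotated gene, which matters because the libraries did not keep strand.

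Because the genes moved together in skin, the 250 bases before their RefSeq starts were searched on both strands for 5 motifs. RefSeq windows of GRCm38.p6 were held for 8 of the 9 genes, with 2 starts for Tgm1. The 9 windows held no AP-1 motif (TGANTCA, in 6.75% of all 32851 windows), no grainyhead-like motif (AACNGGTT, 1.79%) and no N4 GAS motif (the wider STAT spacing, 5.85%). The STAT-type motif TTCNNNGAA, in 7.02% of all windows, was found in 1 window, at the upstream start of Tgm1, where it begins 173 and 64 bases before the start. The TATA motif TATAAA, in 12.4% of all windows, was found at Tgm3 alone, beginning 28 bases before the start. The Elovl4 window stood out by composition, with a GC content of 69.6% and 25 CpG, a number that 10.7% of all windows reach, against 3 to 11 CpG in the other 8 windows. A match is a description of the letters and not a sign of binding. The 3 windows are shown because their letters set them apart, Tgm1 and Tgm3 with the motifs in capitals and Elovl4 with each CpG in capitals. They span chr14:55713493-55713742 on the minus strand, chr2:130012090-130012339 on the plus strand and chr9:83806306-83806555 on the minus strand.
Tgm1: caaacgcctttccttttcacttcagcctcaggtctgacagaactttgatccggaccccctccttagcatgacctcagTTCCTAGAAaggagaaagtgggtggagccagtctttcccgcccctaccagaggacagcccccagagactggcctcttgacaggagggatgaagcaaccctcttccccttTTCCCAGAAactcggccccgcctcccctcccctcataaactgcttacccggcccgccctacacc
Tgm3: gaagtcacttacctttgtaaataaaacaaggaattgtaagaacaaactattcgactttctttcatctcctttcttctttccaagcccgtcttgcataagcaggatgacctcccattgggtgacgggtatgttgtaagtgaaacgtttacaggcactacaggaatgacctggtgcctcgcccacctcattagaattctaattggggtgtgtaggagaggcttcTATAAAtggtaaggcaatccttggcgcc
Elovl4: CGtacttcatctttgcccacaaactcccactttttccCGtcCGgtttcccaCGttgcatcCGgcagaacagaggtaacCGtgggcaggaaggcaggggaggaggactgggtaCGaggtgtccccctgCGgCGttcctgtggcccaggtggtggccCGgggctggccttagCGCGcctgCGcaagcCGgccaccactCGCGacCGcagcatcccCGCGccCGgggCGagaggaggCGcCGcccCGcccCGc

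The study asked how the Jak1 substitution changed gene expression in each tissue. Newborn skin expressed all 9 genes, but Tgm1, Asprv1, Elovl4 and Aloxe3 were also well expressed in another tissue. In WT mice, 8 of the 9 were called higher in skin than in liver at an adjusted p under 0.1, against 41.3% of all 15842 genes tested, and 8 were called higher in skin than in brain, against 39% of 16326. Tgm1 was the exception in liver and Elovl4 in brain. Without the WT 5 skin, the same numbers of 8 and 8 were called higher.

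**Figure D1:**
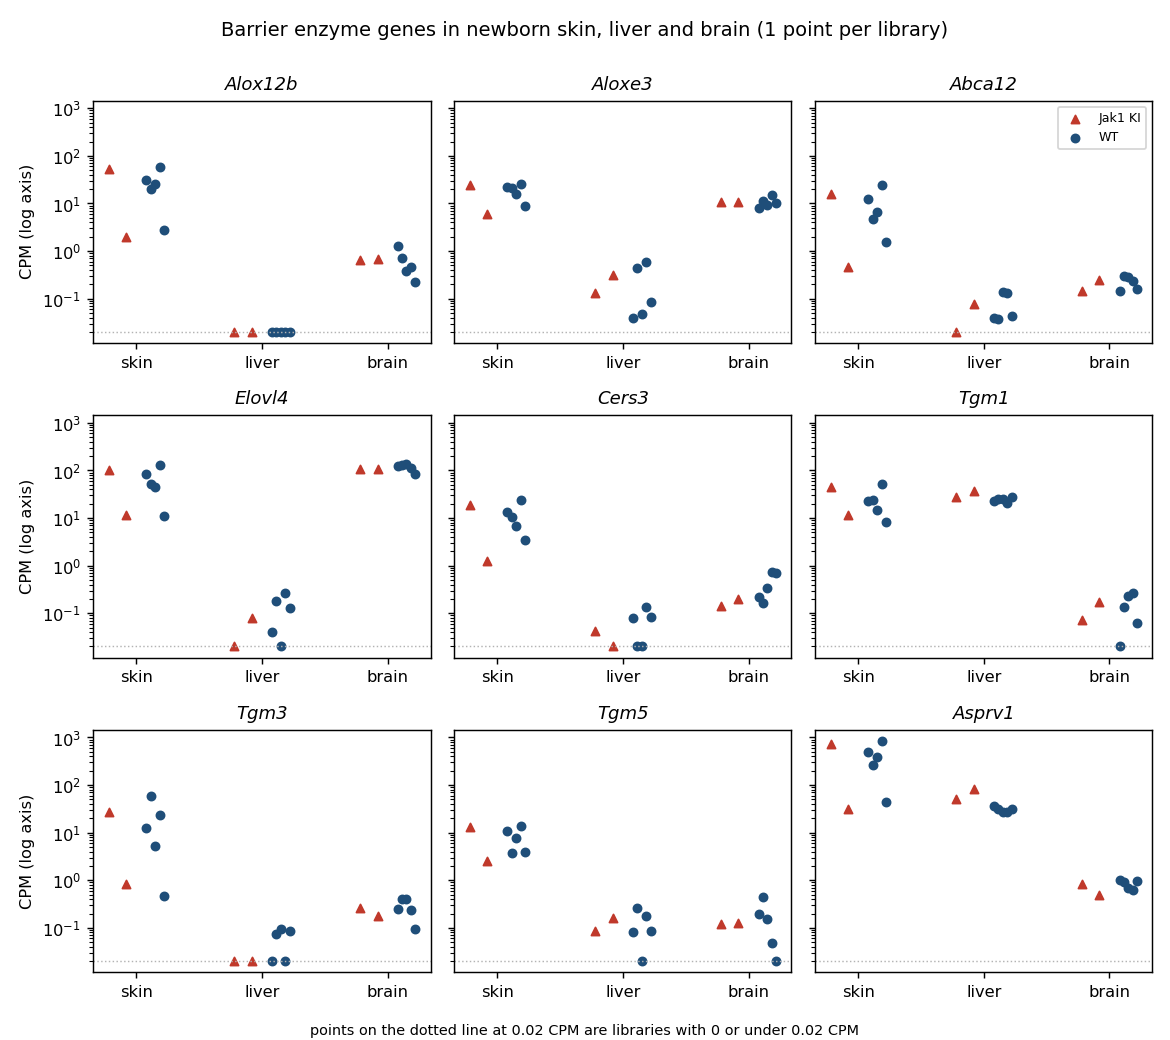
CPM of each gene on a log axis in skin, liver and brain, 1 point per library, red triangles for Jak1 KI and blue circles for WT, with points on the dotted line at or under 0.02 CPM. Tgm1 and Asprv1 are present in liver, Elovl4 and Aloxe3 in brain, and the skin points of every gene run from WT 4 or WT 2 at the top down to KI 2 or WT 5.

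Levels between genes were compared per kilobase of merged exon. In WT skin, Asprv1 led with 267 ± 196 CPM per kb (SD, n = 5), followed by Elovl4 with 20.9 ± 14.5, Alox12b with 11.2 ± 8.21 and Tgm1 with 8.14 ± 5.72 CPM per kb. Tgm3 had 4.94 ± 5.79, Cers3 3.54 ± 2.35, Aloxe3 2.94 ± 1.01, Tgm5 2.55 ± 1.41 and Abca12 1.2 ± 1.09 CPM per kb. The ranges of neighbours in this order overlapped throughout, since the mice differed so much. Within mice the order was firmer at the top and bottom: Asprv1 was above Elovl4, Elovl4 above Alox12b, and Tgm5 above Abca12 in 5 of 5 WT skins. The order of Tgm3, Cers3, Aloxe3 and Tgm5 in the middle changed from mouse to mouse, with Tgm3 above Cers3 in 1 of 5 skins in spite of its higher mean. Without WT 5 the order of the 9 means was the same, from 326 ± 166 CPM per kb (n = 4) for Asprv1 to 1.45 ± 1.08 for Abca12. Counted over its longest transcript alone, Aloxe3 rose to 4.01 CPM per kb, above Cers3.

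Alox12b encodes 12R-lipoxygenase, which oxidises the linoleate of barrier ceramides. Its level in Jak1 KI skin was 53.3 CPM in KI 1 and 1.96 CPM in KI 2, and in WT 1 to WT 5 it was 30.6, 20.2, 25, 57.8 and 2.83 CPM. The KI skins thus spanned almost the whole WT range, with WT 4 highest and KI 2 lowest. Aloxe3, whose product works on the hydroperoxide made by 12R-lipoxygenase, varied least. Its level was 24.3 and 5.93 CPM in KI 1 and KI 2 and 22.4, 21.5, 15.8, 25.2 and 8.94 CPM in WT 1 to WT 5. The 2 low skins were again at the bottom, but the highest skin was 4.25 times the lowest for Aloxe3 and 29.5 times the lowest for Alox12b.

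Abca12 encodes the transporter that loads glucosylceramides into lamellar granules. Its level was 15.5 and 0.466 CPM in KI 1 and KI 2 and 12.2, 4.70, 6.60, 24.7 and 1.57 CPM in WT 1 to WT 5. The KI 2 value rested on 15 counts, and the highest skin was 53.0 times the lowest. Elovl4, the elongase of ultra-long-chain fatty acids, was at 102 and 11.4 CPM in the KI skins and at 83.2, 50.9, 44.9, 128 and 11.1 CPM in WT 1 to WT 5. KI 2 and WT 5 were almost level here, at a ratio of 1.03. Cers3, the ceramide synthase that uses these long acyl chains, was at 18.5 and 1.27 CPM in the KI skins and at 13.3, 10.3, 6.97, 23.5 and 3.53 CPM in the WT skins. For Cers3, KI 2 lay below WT 5, at a ratio of 0.360.

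Tgm1 encodes the membrane-bound transglutaminase of the upper epidermis. It was at 44.2 and 11.9 CPM in KI 1 and KI 2 and at 22.3, 23.7, 15.0, 53.1 and 8.18 CPM in WT 1 to WT 5, so that WT 3 stood at only 1.27 times the level of KI 2. Tgm5, another epidermal transglutaminase, was at 13 and 2.58 CPM in the KI skins and at 10.9, 3.71, 7.82, 13.9 and 3.84 CPM in the WT skins. It was the single gene of the 9 in which another skin, WT 2, lay below WT 5. Tgm3 encodes a transglutaminase of the epidermis and hair follicle that is activated by cleavage. It was at 27.1 and 0.839 CPM in the KI skins and at 12.4, 60.2, 5.15, 23.9 and 0.461 CPM in WT 1 to WT 5. WT 2 was its highest skin, while WT 4 was highest for the other 8 genes. The same WT 2 skin had the lowest summed level of hair follicle and sebaceous gland markers, 88.9 CPM against up to 536 CPM. Among the envelope substrates listed below, only Rptn, Sprr1a and Sprr1b were also highest in WT 2, at 21.2, 21.5 and 13.4 CPM. The cause of the WT 2 values was not tested.

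Asprv1 encodes the retroviral-like aspartic protease that cleaves profilaggrin. It was the most abundant of the 9, at 732 and 31.8 CPM in KI 1 and KI 2 and at 487, 265, 391, 854 and 44.7 CPM in WT 1 to WT 5. Its order over the skins was the same as that of Alox12b, from WT 4 and KI 1 down to WT 5 and KI 2.

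The spread between mice was large for the genes of this group. Over the 5 WT skins the coefficient of variation ran from 34.5% for Aloxe3 to 117% for Tgm3, against a median of 17.9% over all 16163 genes tested and between 11.9% and 20.8% for genes of like mean CPM. Without WT 5 it was still 18.6% for Aloxe3 and between 48.1% and 96.2% for the other 8. KI 2 and WT 5 were the 2 lowest of the 7 skins for 8 of the 9 genes, all but Tgm5, as for 7.92% of all genes tested. These 2 skins were singled out for their low levels, so the count describes them and was not tested.

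**Figure D2:**
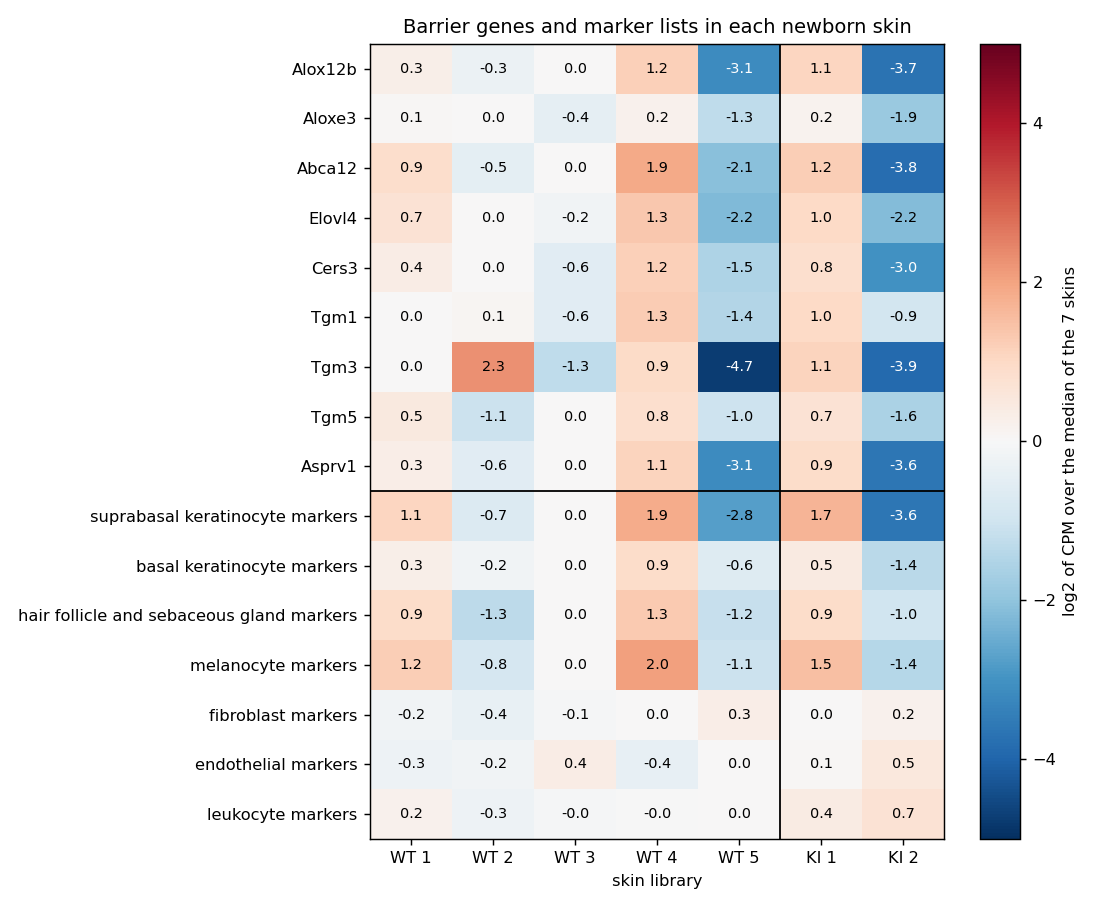
Log2 of the CPM of each gene, and of the summed CPM of each marker list, over the median of the 7 skins, with WT libraries left and Jak1 KI libraries right of the vertical line. Alox12b, Asprv1 and the suprabasal markers are between 2.75 and 3.68 below the median in WT 5 and KI 2, whereas the fibroblast markers are 0.32 and 0.21 above it.

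The genes followed keratinocyte markers in different ways. On the log2 CPM scale with a prior count of 2, Alox12b ranged over 4.80 across the 7 skins, but over 1.00 once the mean of the suprabasal markers was subtracted. The range shrank likewise from 4.70 to 0.90 for Asprv1, from 5.53 to 1.02 for Abca12, from 3.50 to 1.25 for Elovl4 and from 4.11 to 1.25 for Cers3. Tgm1, Aloxe3 and Tgm5 did not follow the suprabasal markers this closely. Tgm1 ranged over 2.67 alone, 3.07 relative to the suprabasal score and 1.58 relative to the basal score. For Aloxe3 these ranges were 2.03, 2.47 and 0.88, and for Tgm5 they were 2.36, 2.31 and 1.29. Tgm3 kept most of its range under both, 6.90 alone, 5.05 and 6.48. Some of these genes and the markers were listed with earlier results of these libraries known, so the ranges are a description.

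**Figure D3:**
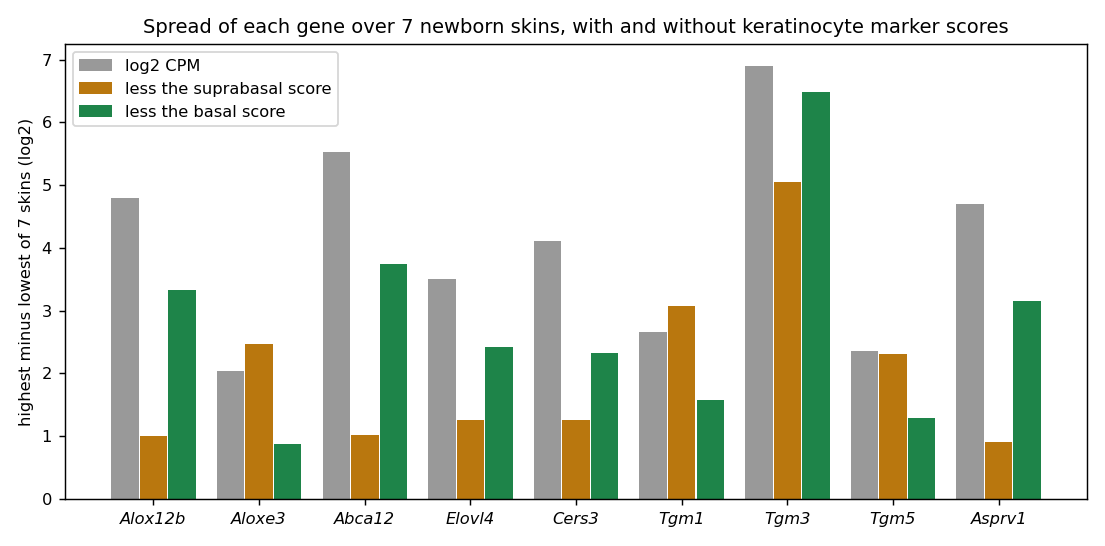
Highest minus lowest of the 7 skins on the log2 scale for each gene, as log2 CPM (grey), less the mean of the suprabasal markers (orange) and less the mean of the basal markers (green). The orange bars are at or below 1.25 for Alox12b, Abca12, Elovl4, Cers3 and Asprv1, and the green bar is the shortest for Aloxe3, Tgm1 and Tgm5.

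Likeness was measured by Pearson's r over the 7 skins, after the genotype means had been removed from log2 CPM, among 10408 other genes with at least 10 CPM. The genes most like the mean of the 9 were Dsp, which encodes the desmosome protein desmoplakin, with r = 0.996, and Aim1l, Scamp1, Snrnp25 and Csta1, with r = 0.995, 0.994, 0.994 and 0.993. All such values lean on KI 2 and WT 5. Over the other 5 skins, without removal of means, r was 0.989 for Dsp and 0.987 for Aim1l, but 0.907, 0.813 and 0.778 for Scamp1, Snrnp25 and Csta1. For single genes the nearest were Nccrp1 to Alox12b, BC100530 to Aloxe3, Lamb3 to Abca12, Serpinb3c to Elovl4 and Evpl to Cers3. Jmjd1c was nearest to Tgm1, Fnbp1l to Tgm3, Alox12e to Tgm5 and Crct1 to Asprv1, with r between 0.990 and 0.999 for these 9 pairs, and between 0.748 and 0.990 over the other 5 skins. Between pairs of the 9 genes themselves, r ran from 0.560 for Tgm3 with Tgm5 to 0.999 for Alox12b with Asprv1. Over the other 5 skins it ran from -0.36 to 0.983 for the same pairs.

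In skin, none of the 9 genes differed between Jak1 KI and WT mice by edgeR's quasi-likelihood test. The log2 fold changes were 0.18 ± 0.70 (SE, n = 2 and 5) for Tgm1, 0.01 ± 1.17 for Alox12b, -0.06 ± 0.71 for Tgm5, -0.10 ± 1.17 for Asprv1 and -0.18 ± 0.95 for Elovl4. They were -0.23 ± 0.95 for Cers3, -0.32 ± 1.23 for Abca12, -0.32 ± 0.56 for Aloxe3 and -0.56 ± 1.57 for Tgm3. Each adjusted p was at least 0.999. Among all 16163 genes tested, 0.0247% were called higher and 0% lower, 4 and 0 genes, while 467 and 271 had an unadjusted p under 0.05. With standard errors of 0.56 to 1.57 on the log2 scale, 2-fold differences of these genes were not detectable.

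The sign depended on which skins were kept. With both KI skins but without WT 5, all 9 log2 fold changes were below 0, from -0.04 for Tgm1 to -0.88 for Tgm3. With both KI skins but without WT 4, 7 of the 9 were above 0. Without KI 2, all 9 log2 fold changes were above 0, from 0.36 for Aloxe3 to 0.96 for Alox12b. Without KI 1, all 9 were below 0, from -1.02 for Tgm1 to -4.60 for Tgm3. Without both KI 2 and WT 5, they lay between 0.06 for Tgm3 and 0.67 for Alox12b, and none was called. KI 1 alone stood at 1.07 to 1.6 times the mean of WT 1 to WT 4 for the 9 genes, and WT 4 was above KI 1 for 8 of them, all but Tgm3. KI 2 stood below WT 5 for 6 genes, with ratios from 0.297 for Abca12 to 0.712 for Asprv1, and above it for Elovl4, Tgm1 and Tgm3, with ratios of 1.03, 1.45 and 1.82.

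**Figure D4:**
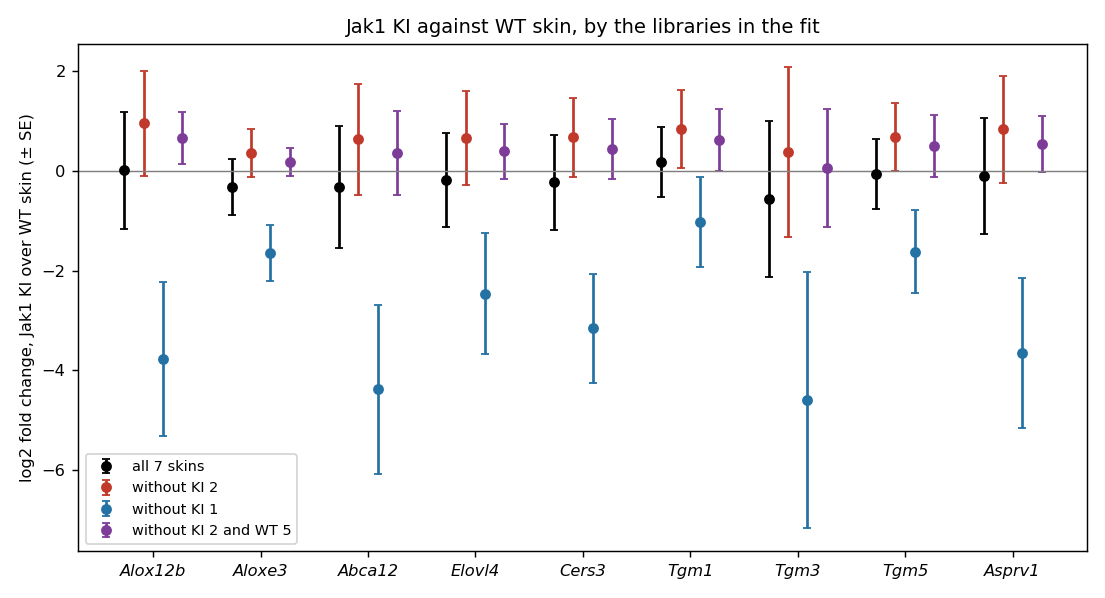
Log2 fold change of Jak1 KI over WT skin with its standard error for each gene, with all 7 skins, without KI 2, without KI 1 and without both KI 2 and WT 5. All 9 points without KI 2 lie above 0 and all 9 without KI 1 lie below 0.

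Other barrier genes were not called either. Of 99 tested genes in 5 lists of the pathway, none was called in Jak1 KI skin in either direction. Their median log2 fold change was -0.08, against -0.03 over all genes tested and -0.18 for the 9. Without both KI 2 and WT 5 these medians were 0.27, -0.04 and 0.44, again with no call. By the share of genes lowest in KI 2 and WT 5, envelope substrates came closest of the 5 lists to the 9, with 87.5% against 88.9%. Loricrin (Lor), the main protein of the envelope, was at 1800 and 61.2 CPM in KI 1 and KI 2 and at 1181, 561, 1099, 2682 and 79.7 CPM in WT 1 to WT 5. KI 2 and WT 5 were the 2 lowest skins for 14 of 16 substrates, against 7.92% of all genes tested. Dmkn and Krtdap were among these substrates, with lowest values of 32.4 and 31.3 CPM, both in KI 2. Krtdap and Sbsn are also among the 7 suprabasal markers that set the 2 skins apart, so the count describes the skins and was not tested.

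The lists of other roles split. Of 39 other lipid genes, KI 2 and WT 5 were lowest for 19. The most abundant of these, Scd1, a fatty acid desaturase, ran differently, with 581 and 2123 CPM in the KI skins and 3201, 1849, 4781, 191 and 531 CPM in WT 1 to WT 5. Its lowest skin was WT 4, the highest one for most barrier genes, and the adipocyte marker Adipoq was lowest there too, at 119 CPM. Psap and Abhd5, next in level, had highest-to-lowest ratios of 1.47 and 2.79. In the filaggrin processing list, KI 2 and WT 5 were lowest for 13 of 20 genes, but the abundant proteases Ctsd and Ctsl varied only 1.72-fold and 1.45-fold, and Blmh, which breaks down filaggrin peptides, 2.57-fold. Among regulators of late differentiation the count was 9 of 20, and Cebpa, Klf4 and Notch1 varied 2.47-fold, 3.22-fold and 1.46-fold.

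Other members of the transglutaminase family stood apart from Tgm1, Tgm3 and Tgm5. Of 4 tested, only Tgm6, under 1.4 CPM in every skin, was lowest in KI 2 and WT 5. F13a1, the coagulation factor XIII A chain, was at 288 and 377 CPM in the KI skins and at 254, 175, 205, 229 and 204 CPM in the WT skins. Both KI values were above all WT values, as for 5.45% of all genes tested in skin, but the log2 fold change of 0.62 ± 0.16 had an adjusted p of 0.756. The leukocyte markers also stood higher in the KI skins, with sums of 196 and 246 CPM against at most 172 CPM in WT skin, and their part in the F13a1 values was not tested. Tgm2, the broadly expressed tissue transglutaminase, had a log2 fold change of 0.32 ± 0.29 and Tgm4 one of -0.12 ± 0.16. Without both KI 2 and WT 5 the 3 values were 0.41 ± 0.22, 0.28 ± 0.42 and -0.022 ± 0.24.

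In liver, 2 of the 9 genes were well expressed. Alox12b had 0 counts in all 7 livers. A limit of 3 counts per library, 0.126 CPM on average, puts the mean of the 5 WT skins at least 217-fold higher. The WT 5 skin alone was at only 2.83 CPM. Abca12, Elovl4, Cers3, Tgm3, Tgm5 and Aloxe3 had at most 13 counts in any liver. Tgm1, by contrast, was at 27.2 and 37.6 CPM in KI 1 and KI 2 and at 22.3, 25.3, 24.8, 20.4 and 28.0 CPM in WT 1 to WT 5. The WT liver mean of 24.2 ± 2.90 CPM (SD, n = 5) was level with the WT skin mean of 24.5 ± 17.2 CPM, with a log2 fold change of 0.02 ± 0.39 and an adjusted p of 0.960 by edgeR. This equality hung on TMM scaling, since by plain library totals the means were 28.3 CPM in skin and 17.2 CPM in liver. The suprabasal markers summed to at most 6.64 CPM in any liver.

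Asprv1 was higher in Jak1 KI liver. It was at 50.9 and 82.7 CPM in KI 1 and KI 2 and at 35.7, 32.1, 27.2, 26.9 and 31.0 CPM in WT 1 to WT 5, and did not overlap between the genotypes. Both KI values exceeded every WT value for 12% of the 14966 genes tested in liver. The log2 fold change was 1.14 ± 0.18 with an adjusted p of 0.0133 by edgeR. In all, 3.89% of genes were called higher and 1.68% lower in KI liver. Of the 3 genes of this group tested there, Asprv1 alone was called, and Tgm1 had a log2 fold change of 0.44 ± 0.16 with an adjusted p of 0.198. The call was lost without KI 2, where the Asprv1 log2 fold change was 0.76 and the adjusted p 0.18. It was also lost in a fit of all 21 libraries, with a log2 fold change of 1.13 and an adjusted p of 0.718.

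Several marker lists stood higher in the same livers. Leukocyte markers summed to 657 and 668 CPM in the KI livers against 424 to 517 CPM in the WT livers, without overlap for 4 of 4 genes. Both KI values exceeded every WT value for 12% of all genes tested in liver, and for 0 of 6 fibroblast and 0 of 4 hepatocyte markers. Neutrophil granule genes, a list added after the Asprv1 values were seen, summed to 9120 and 10825 CPM against 5883 to 7588 CPM, without overlap for 6 of 10 genes. The adipocyte list summed to 277 and 281 CPM against 94.6 to 127 CPM, with 1 of 4 genes free of overlap, and most of that sum was Fabp4, while Adipoq was at most 0.0932 CPM. The neuron list summed to 5.25 and 5.45 CPM against at most 2.23 CPM, with 1 of 4 genes free of overlap. Tubb3 alone reached 5.24 CPM in a liver, while Nefl was at most 0.219 CPM. Basal keratinocyte markers summed to 57.0 and 63.7 CPM against 45.6 to 56.5 CPM, with 1 of 6 genes free of overlap. Most of that sum was Itga6, at 42.8 to 62.2 CPM over the livers. Krt5 and Krt14 were at most 0.267 and 1.33 CPM in any liver. Suprabasal keratinocyte markers were at 3.91 CPM in both KI livers and at 3.41 to 6.64 CPM in the WT livers. The part of these lists in the Asprv1 difference was not tested. The KI effect on Asprv1 in skin minus that in liver was -1.22 ± 1.11 on the log2 scale and was not called, with an adjusted p above 0.999 in a test where 0.0997% of 18062 genes were called. Without the KI 2 and WT 5 skins this difference was -0.58.

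**Figure D5:**
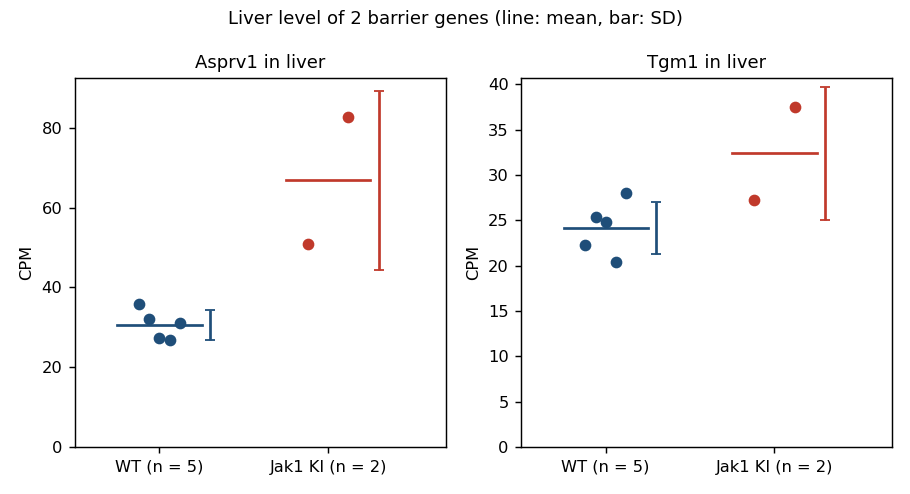
CPM of Asprv1 and Tgm1 in the livers of 5 WT and 2 Jak1 KI mice, 1 point per library, with the mean as a line and the SD as a bar. Both KI points of Asprv1, 50.9 and 82.7 CPM, are above the highest WT point of 35.7 CPM, whereas the lower KI point of Tgm1, 27.2 CPM, lies below the highest WT point of 28.0 CPM.

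In brain, Elovl4 and Aloxe3 were expressed. Elovl4, which also makes very long-chain fatty acids in neurons and photoreceptors, was at 109 and 107 CPM in the KI brains and at 124, 129, 137, 113 and 84.9 CPM in WT 1 to WT 5. The WT brain mean of 118 ± 20.3 CPM (SD, n = 5) was above the WT skin mean of 63.7 ± 44.3 CPM, but the log2 fold change of -0.89 ± 0.46 was just short of the call, with an adjusted p of 0.104 by edgeR. In the same comparison 39.6% of all genes were called lower in skin. Without WT 5 in skin, the adjusted p was 0.0842 and the log2 fold change -0.61. Elovl4 was called under 6 of 12 alternatives, with log2 fold changes of -0.61 to -1.33. Aloxe3 was at 10.8 and 10.9 CPM in the KI brains and at 8.16, 11.2, 9.10, 15.1 and 10.4 CPM in the WT brains. WT skin was higher by 0.79 ± 0.27 on the log2 scale, with an adjusted p of 0.0204. Without the WT 5 skin it was 0.98 with an adjusted p of 0.0020, and without the mice numbered 1 the call was lost, at 0.64 with an adjusted p of 0.103. The other 7 genes had at most 53 counts in any brain.

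No gene of the group differed between Jak1 KI and WT brain. The log2 fold change was -0.21 ± 0.18 for Elovl4 and -0.08 ± 0.26 for Aloxe3, with adjusted p of 0.717 and 0.929 by edgeR. Among the 7 genes of the group tested in brain 0 were called, against 0% higher and 0% lower of all 16322 genes. At an unadjusted p under 0.05, 457 genes were higher and 1275 lower. WT 5 also stood apart in brain: without it 672 and 1026 genes were called, and Elovl4 was among those lower in KI brain, at -0.28 with an adjusted p of 0.0888. The KI effects on Elovl4 and Aloxe3 in skin and in brain differed by -0.05 ± 0.92 and -0.31 ± 0.79 on the log2 scale, neither of which was called.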

How the data were processed

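The authors extracted total RNA from brain, liver and skin, prepared unstranded poly-A libraries and sequenced them paired-end. Per the study's methods, mm9 served as the genome and TopHat2 as the aligner after trimming, and the submitters' processing notes also list HTSeq and DESeq. The counting options and annotation are not given in the sources used here, and the methods state a lower RNA integrity for skin than for liver. For each of 21 libraries the authors deposited raw counts for 24391 gene symbols and 5 summary lines, which were left out. Between 80.5% and 87.6% of uniquely aligned reads were on genes.

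Counts were filtered with filterByExpr, scaled by TMM and compared by quasi-likelihood (edgeR 4.0.16, R 4.3.3) for 2 KI against 5 WT libraries in each tissue, for WT skin against WT liver and WT brain, and for the difference of KI effects between tissues. Genes were called at a Benjamini-Hochberg adjusted p under 0.1. The standard error was the log2 fold change divided by the square root of the F statistic. Where 1 KI library was left, its spread was taken from the WT libraries. Alternatives were DESeq2 1.42.0, its size factors, no filter, other covariates, leaving out libraries and a fit of all 21 libraries. The fits were tested on simulated data. Depth limits low genes, and levels rest on counting error as well as on the spread between samples. No 2 libraries of a group agreed within sampling noise.

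The 9 genes and all lists were chosen with earlier results of these data known. The text names the 9 genes, the 3 most abundant genes in WT skin of each pathway list and any called, the 5 genes most like the mean of the 9, the nearest gene to each, and the 2 most abundant markers of a list. Itga6, Itgb4, Lum, Pdgfra, Rptn, Sprr1a, Sprr1b, Sbsn, Tgm6 and Adipoq were named after their values were seen, or as such a marker. Lengths are merged exons of GENCODE vM1, and promoter windows come from RefSeq on GRCm38.p6. Aloxe3 had no such window.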

Additional observations from a re-analysis of the deposited data

How the results depend on the processing

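Of 9 log2 fold changes between Jak1 KI and WT skin, none was called under any of 18 alternatives, but each changed sign under at least 2 of them. Leaving out single mice moved them from -3.78 to 0.96 for Alox12b, -1.65 to 0.36 for Aloxe3, -4.38 to 0.63 for Abca12, -2.46 to 0.67 for Elovl4, -3.15 to 0.67 for Cers3, -1.02 to 0.84 for Tgm1, -4.60 to 0.42 for Tgm3, -1.62 to 0.68 for Tgm5 and -3.66 to 0.84 for Asprv1. Without both KI 2 and WT 5, an alternative added after seeing the data, Aloxe3 was 0.18, Abca12 0.36, Elovl4 0.39, Cers3 0.44, Tgm3 0.064, Tgm5 0.50 and Asprv1 0.55. With the suprabasal score as covariate, Elovl4 was 0.28, Tgm5 0.20 and Asprv1 0.15. With the basal score, also added later, Abca12 was 0.050, Elovl4 0.42, Cers3 0.060, Tgm5 0.35 and Asprv1 0.30. Alox12b was -0.0050 with the skeletal muscle score and -0.23 with Y-linked expression. The cause of these changes was not tested.

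The replicate block was fitted although KI and WT mice share only a number, with deviations of same-numbered skins correlated at 0.198 and 0.0363 over the 2 pairs. With the replicate block, Alox12b was -1.16 and Tgm1 -0.028 in KI skin, and Aloxe3 was 0.10 in KI brain. The methods name 2 KI and 5 WT mice for all tissues, but the labels tie no number to a mouse, and same-numbered WT skins and livers correlated at 0.0185 to 0.17. With the replicate block, Tgm1 was -0.23 in WT skin against WT liver, and Elovl4 in WT skin against WT brain was called at -1.24, with an adjusted p of 0.0282. Elovl4 was called lower in KI brain with the block, at -0.30 with an adjusted p of 0.0690. Deviations of same-numbered KI and WT brains correlated at 0.0217 and -0.0952, which gave no sign of pairing. WT mice without a KI mouse of the same number add nothing to the KI effect in this fit. The brain call therefore rests on 2 arbitrary pairs and gives no weight to WT 5, so no conclusion is drawn from it.

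Without single mice, Tgm1 in WT skin against WT liver ran from -0.53 to 0.31, and Aloxe3 in KI brain from -0.15 to 0.081. Aloxe3 was 0.0020 in KI brain in the fit of all 21 libraries. The Asprv1 call in KI liver was lost in that fit, at 1.13 with an adjusted p of 0.718, and without KI 2. Over all alternatives its adjusted p ran from 2.6e-06 to 0.718. Elovl4 in WT skin against WT brain was called under 6 of 12 alternatives. Aloxe3 lost its call there without the mice numbered 1. Without both low skins, the KI effect in skin less that in liver was 0.21 for Tgm1 and -0.58 for Asprv1, and less that in brain 0.19 for Aloxe3 and 0.53 for Elovl4.

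Counts of called genes moved as follows. In KI skin, 96 genes were higher and 11 lower by DESeq2, 22 and 1 in the fit of all 21 libraries, and 0 higher with the replicate block, with either the suprabasal or the muscle score, without both low skins and at an adjusted p under 0.05. With Y-linked expression 1 was higher, with the basal score 1 was lower, and without single mice 0 to 1 were higher. In KI liver, 156 were higher and 86 lower in the fit of all 21 libraries and 302 and 81 at an adjusted p under 0.05, DESeq2 called 641 lower, and without single mice 49 to 784 were higher and 7 to 506 lower. In KI brain, 80 were higher and 524 lower by DESeq2, and 173 and 441 in the fit of all 21 libraries. Without single WT mice, 0 to 672 were higher and 0 to 1026 lower in KI brain. With the replicate block the brain counts were 783 and 1382, but that fit rests on pairs of mice that share only a number. Without both low skins, 3 genes had a higher KI effect in skin than in liver and 1 a higher effect than in brain. Counting by library totals moved Tgm1 and Asprv1 in WT liver to 17.2 and 21.9 CPM and Elovl4 in WT brain to 145 CPM.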
